A study of Mus musculus with 18 samples.

Results

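Oxidative phosphorylation subunit genes are the nuclear genes that encode the protein parts of the respiratory chain (complexes I to IV) and of ATP synthase (complex V). They were taken here by gene symbol: Ndufa, Ndufb, Ndufc, Ndufs or Ndufv with a number, Sdha to Sdhd, symbols that start with Uqcr or Atp5, Cyc1, and Cox4 to Cox8 with a suffix. Of 17180 genes listed in any table, 82 matched, and 79 had at least 30 reads summed over the 16 complete libraries. Complex I had 35 of them, complex II 4, complex III 9, complex IV 14 and complex V 17. Ndufa4 bears a complex I name but is now known as a subunit of complex IV and was placed there, and Atp5s and Atp5sl bear complex V names although their products are not parts of the enzyme itself.

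Complex I (NADH dehydrogenase) and complex II (succinate dehydrogenase) pass electrons to ubiquinone, complex III passes them on to cytochrome c, and complex IV (cytochrome c oxidase) hands them to oxygen. Complexes I, III and IV pump protons across the inner mitochondrial membrane, and complex V lets them flow back and makes ATP. A few catalytic subunits of complexes I, III, IV and V are encoded by mitochondrial DNA and are not analysed here. The liver is rich in mitochondria, and after partial hepatectomy the remaining hepatocytes enter the cell cycle while they go on with the work of the whole organ.

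RNA was from liver of C57BL/6 mice after a sham operation and at 0.5, 2, 4, 24, 48, 72, 120 and 168 h after removal of 2/3 of the liver. The 9 groups had 2 libraries each. A library held RNA pooled from 3 mice, n is therefore 2 pools in every group, and p-values measure the spread between pools. The sham mice are labelled only as a control, with no time of collection, and the sex of the animals is not in the labels. The labels name no altered gene and no drug in any group.

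Library totals ran from 7.78 to 9.16 M uniquely mapped reads. Tables of 2 libraries stop early: 1.14% of reads are unlisted for sham replicate 2 and 4.73% for 0.5 h replicate 1. A gene missing there may have had up to 52 and 157 reads. Of the 79 subunit genes, 72 were listed in all 18 libraries and were tested there among 4906 genes. The other 7 (Ndufa1, Ndufb2, Ndufs5, Ndufs8, Cox6b2, Cox7a1 and Atp5s) were missing from at least 1 short table. Of these, 6 were tested among 12199 genes of the 16 complete libraries, in which sham and 0.5 h have 1 library each, and Ndufs8, with 0 to 8 reads per complete library, was not tested. The tissue showed its hepatocyte markers: all 8 genes of the list, Alb and Ttr among them, were listed. Their summed level was lower at 24 h (90940 to 97260 CPM, reads scaled to the library total and by TMM factors) than in any other group (129200 to 176200). All 8 endothelial, all 8 stellate and all 10 Kupffer cell markers were listed as well. In whole tissue, fewer cells of a type cannot be told apart from less RNA per cell.

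Levels are given as RPKM (reads scaled to gene length and library total) after scaling of the libraries with TMM factors, called scaled RPKM, so that they can be compared between genes and between libraries. Atp5b encodes the catalytic beta subunit of ATP synthase and had the highest mean level of all 79 genes, 711 scaled RPKM. Scaled RPKM of Atp5b was 689 and 683 in the sham pools, 711 and 735 at 0.5 h, 650.1 and 705 at 2 h and 648 and 639.7 at 4 h. Atp5b had 634 and 666 at 24 h, 716 and 761 at 48 h, 814 and 773 at 72 h, 709 and 725 at 120 h and 789.6 and 745 at 168 h. Its highest pool was at 72 h and its lowest at 24 h. Uqcrb, which encodes a small subunit of complex III, led that complex with a mean of 428 scaled RPKM. Scaled RPKM of Uqcrb was 415 and 487 in the sham pools, 428 and 355 at 0.5 h, 601 and 356 at 2 h and 523 and 542 at 4 h. Uqcrb had 499 and 426 at 24 h, 348 and 327 at 48 h, 433 and 453 at 72 h, 442 and 356 at 120 h and 309 and 397 at 168 h. The pools at 2 h lay far apart, and copies of Uqcrb elsewhere in the genome share 43.4% of its 50-base windows. Cox6b1, which encodes the common form of a subunit that links the monomers of the complex IV dimer, led complex IV with a mean of 410 scaled RPKM. Scaled RPKM of Cox6b1 was 391 and 400.0 in the sham pools, 409 and 428 at 0.5 h, 423 and 406 at 2 h and 383 and 383 at 4 h. Cox6b1 had 373 and 401 at 24 h, 388 and 399.9 at 48 h, 436 and 419.7 at 72 h, 422 and 421 at 120 h and 424 and 468 at 168 h. Both pools at 0.5 h, 2 h, 72 h, 120 h and 168 h lay above both sham pools, and no time was called against sham in the edgeR test (at 168 h, 0.17 ± 0.09, edgeR adjusted p = 0.230).

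Ndufs6, which encodes a zinc-binding accessory subunit, led complex I with a mean of 204 scaled RPKM. Scaled RPKM of Ndufs6 was 162 and 181 in the sham pools, 223 and 169 at 0.5 h, 238 and 202 at 2 h and 202 and 211 at 4 h. Ndufs6 had 187 and 181 at 24 h, 184 and 212 at 48 h, 239.7 and 235 at 72 h, 223 and 194 at 120 h and 183 and 243 at 168 h. Each pool after hepatectomy lay above both sham pools except 1 at 0.5 h, but no time was called against sham (at 72 h, 0.47 ± 0.16, edgeR adjusted p = 0.0675). Sdhb, the iron-sulfur subunit of succinate dehydrogenase, led complex II with a mean of 168 scaled RPKM. Scaled RPKM of Sdhb was 154 and 161 in the sham pools, 199 and 190.3 at 0.5 h, 185 and 166 at 2 h and 162 and 159 at 4 h. Sdhb had 136 and 136 at 24 h, 149 and 152 at 48 h, 188 and 176 at 72 h, 167 and 174 at 120 h and 172 and 191 at 168 h. Sdhb was the single gene of complex II among the 10 subunit genes with the smallest p for any difference among the 9 groups (edgeR adjusted p = 0.00738), with its lowest pools at 24 h, while no single time was called against sham. At the low end, Ndufs8 averaged 0.402 scaled RPKM, Atp5s 1.83 and Cox6b2 2.04. Ndufs8 had the lowest mean of complex I, where the median of the gene means was 80.42 scaled RPKM. Whether the few reads counted for Ndufs8 reflect its level in liver was not tested.

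Summed over the 72 genes listed everywhere, the level in scaled RPKM was 10631 and 11113 in the sham pools, 11457 and 11866 at 0.5 h, 11534 and 10739 at 2 h and 11358 and 11414 at 4 h. The sums were 9851 and 10392 at 24 h, 9752 and 10206 at 48 h, 11390.4 and 10829 at 72 h, 10950.3 and 11048 at 120 h and 10854 and 11339.7 at 168 h. The 24 h mean was 0.931 of the sham mean and the 48 h mean 0.918, and both pools at 24 h and both at 48 h lay below both sham pools. Complex III had the lowest 48 h sum relative to sham, 1459 ± 33.7 scaled RPKM at 48 h against 1708 ± 96.1 in sham (SD), a ratio of 0.854. Complex IV had a ratio of 0.867 at 24 h and 0.871 at 48 h, with sums of 2446 ± 129 at 24 h, 2456 ± 89.6 at 48 h and 2821 ± 68.2 in sham (SD). Complex II was lowest at 24 h, at 0.869 of sham. Complexes I and V moved less, with 48 h sums at 0.941 and 0.978 of sham. Without scaling, the same genes took, in percent of all reads, 1.004 and 0.996 in the sham pools, 1.03 and 1.08 at 0.5 h, 0.934 and 0.893 at 2 h and 0.757 and 0.797 at 4 h. The shares were 0.996 and 1.02 at 24 h, 1.04 and 1.04 at 48 h, 1.11 and 1.11 at 72 h, 1.02 and 1.004 at 120 h and 1.03 and 1.05 at 168 h. That share was lowest at 4 h, whereas the scaled sum at 4 h was 1.05 of sham; with library totals alone the median of all tested genes fell by 0.37 on the log2 scale at 4 h against sham.

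**Figure D1:**
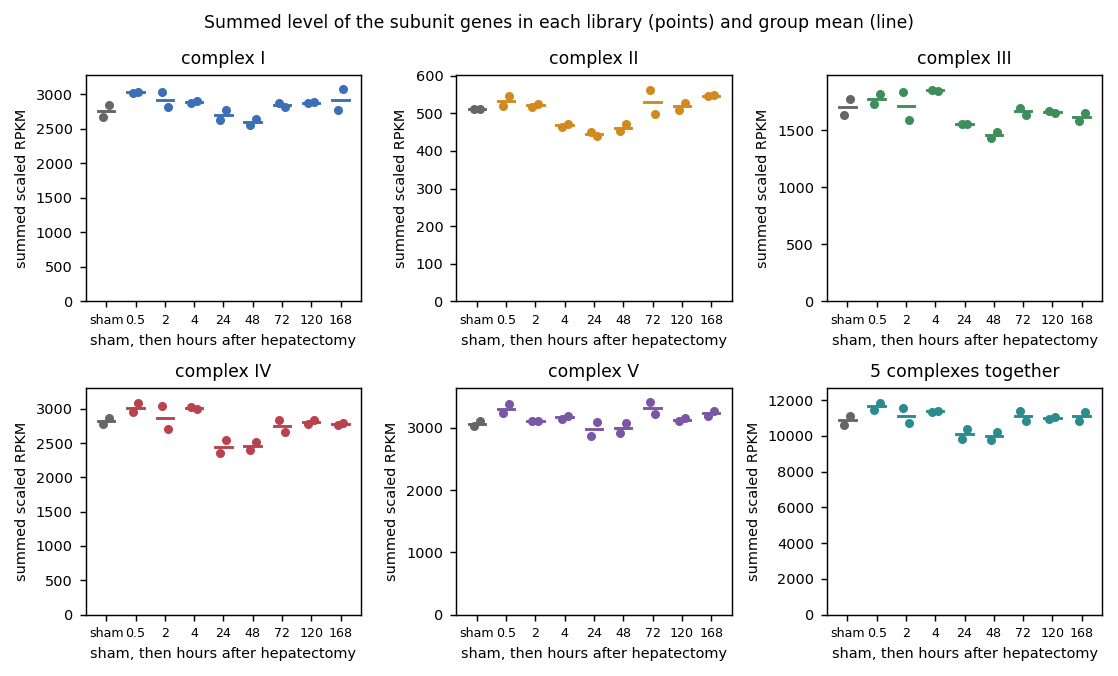
Summed scaled RPKM (y axis, from 0) of the subunit genes of each complex, and of all 72 together, in sham and at each time in hours (x axis); points are single libraries and lines are group means, n = 2 pools. The means at 24 h and 48 h are the lowest in every complex, and at 72 h the complex III mean was back at 0.977 of sham and the complex IV mean at 0.973.

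The spread of the subunit genes over the 9 groups was read from group means. The highest group mean of a gene was a median of 1.37 times its lowest, against 1.71 for all 4906 tested genes, and 2 of 72 passed a ratio of 2, against 32.0% of all genes. The median ratio was 1.38 in complex I, 1.33 in complex II, 1.5 in complex III, 1.38 in complex IV and 1.34 in complex V. In the edgeR F test for any difference, 28 of the 72 were called, where 68.6% of all tested genes were. The count was 45 with DESeq2, 47 with library totals alone and 16 to 30 when 1 library was left out (16 without sham 1, 4 h 2 or 48 h 2, and 18 without sham 2 or 48 h 1, by replicate). The smallest p belonged to Uqcr11 (edgeR adjusted p = 0.00214), Ndufb11 (0.00221), Atp5sl (0.00255), Cox7b (0.00368) and Ndufa4 (0.00474). The lowest group mean lay at 24 h for 23 genes, at 48 h for 22 and at 4 h for 13, and the highest at 0.5 h for 19 and at 4 h for 19. These ranks rest on TMM scaling and are not given for all genes. With library totals alone 34 subunit genes were called lower than sham at 4 h and 0 higher, beside 2287 lower and 318 higher of all 4906 genes.

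**Figure D2:**
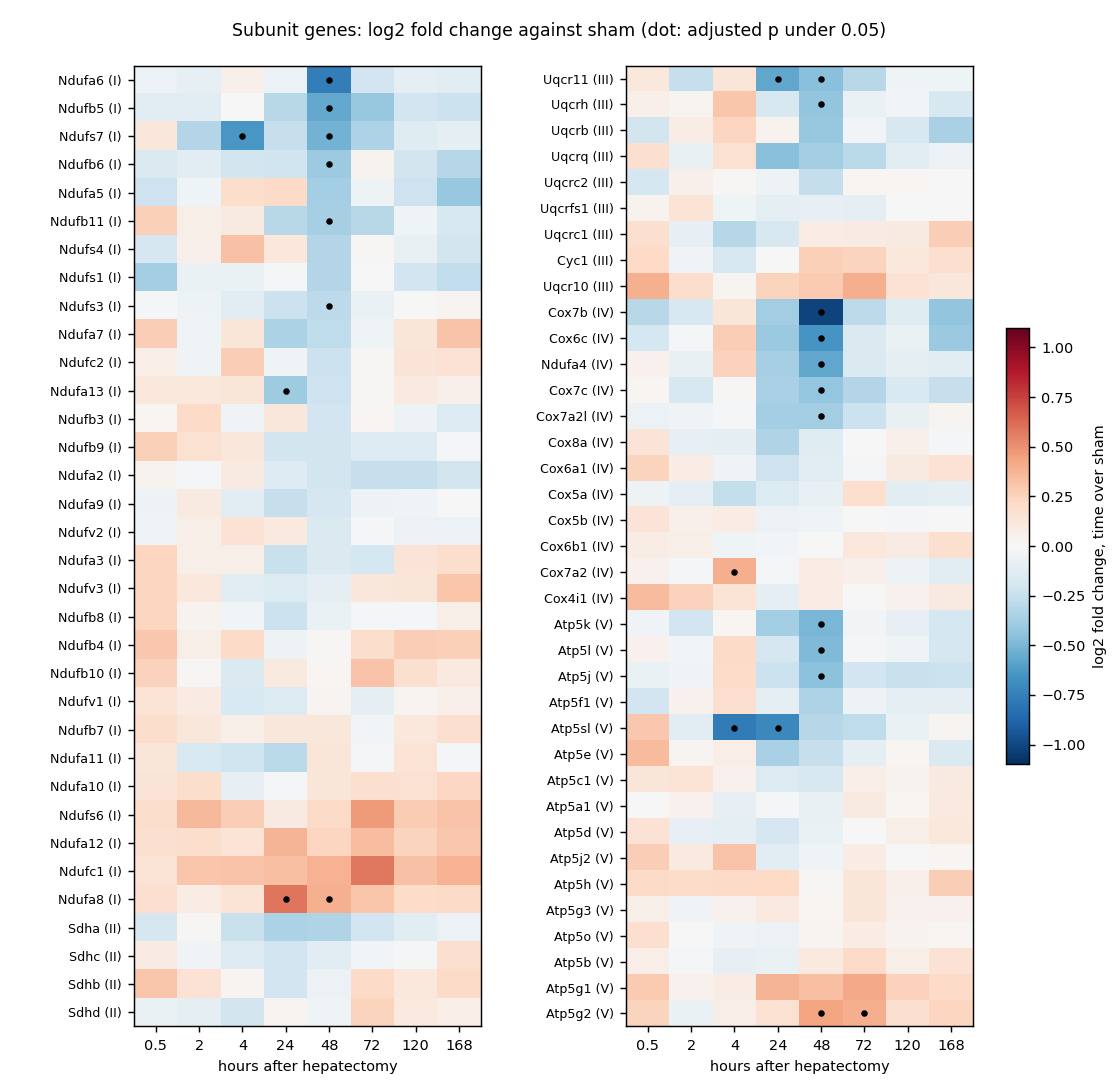
Log2 fold change of 71 of the 72 subunit genes (rows, complex in brackets) at each time after hepatectomy over sham (columns, hours), from blue (lower) to red (higher); dots mark edgeR adjusted p under 0.05, n = 2 pools per group. Dots gather at 48 h, where 16 of the 72 were lower and 3 higher (5 lower and 9 higher with library totals alone). That is 26.4% called, beside 36.8% of all tested genes. Most other columns are pale.

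In the first hours few subunit genes passed the test. Changes are log2 fold changes ± SE from edgeR. At 0.5 h against sham none of 72 was called, where 0.204% of all genes were, with 11 at an unadjusted p under 0.05 (844 of all 4906 genes) and 2 by DESeq2. At 2 h none was called either, where 8.76% of all genes were, with 2 at an unadjusted p under 0.05 (991 of all 4906 genes) and 0 by DESeq2. At 4 h 1 rose and 2 fell, where 35.7% of all genes were called (16.9% higher and 18.8% lower). DESeq2 called 3 higher and 3 lower. Cox7a2, the form of subunit VIIa found in liver, rose. Scaled RPKM of Cox7a2 was 106 and 123 in the sham pools, 125 and 112 at 0.5 h, 125 and 99.5 at 2 h and 140.1 and 161 at 4 h. Cox7a2 had 118 and 107 at 24 h, 121 and 120.1 at 48 h, 117 and 121 at 72 h, 111 and 109 at 120 h and 105 and 105 at 168 h. Its 4 h pools were the highest of the course, and the change was 0.40 ± 0.13, edgeR adjusted p = 0.0269. Atp5sl, whose product aids assembly of complex I, fell (-0.77 ± 0.18, edgeR adjusted p = 0.00550), as did Ndufs7, which encodes the subunit that holds the last iron-sulfur cluster before ubiquinone (-0.64 ± 0.19, edgeR adjusted p = 0.0176). With library totals alone, 34 were called lower and 0 higher at 4 h. Cox7a2 lost its call without sham replicate 1 (edgeR adjusted p = 0.2003) or 4 h replicate 2 (0.166), Atp5sl without sham replicate 2 (0.0676) or 4 h replicate 1 (0.0665), and Ndufs7 without sham replicate 1 (0.0930) or 4 h replicate 1 (0.125). Summed neutrophil and monocyte markers (9 of 10 listed) stood at 61.8 and 137 CPM at 4 h against 16.3 in sham replicate 1. Cholangiocyte (97.4 and 158 against 39.1), adipocyte (35.8 and 40.0 against 7.75) and Kupffer cell sums (808 and 986 against 597) were higher too. So were hepatocyte, endothelial and stellate cell sums, while erythroid sums were alike (295 and 296 against 296). All these sums carry the TMM factors (0.7652 and 0.7935 at 4 h, 1.0285 in sham replicate 1). Their direction may depend on the scaling, and they are not given for library totals alone. As a share of all reads, unscaled, albumin took 7.97% and 9.18% at 4 h against 9.28% in sham replicate 1. The part of these cell types in these results was not tested.

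At 24 h against sham 1 subunit gene rose and 3 fell, where 17.3% of all genes were called (7.87% higher and 9.46% lower). Ndufa8, an accessory subunit of complex I on the intermembrane side, was the one that rose. Scaled RPKM of Ndufa8 was 91.0 and 96.7 in the sham pools, 112 and 102 at 0.5 h, 98.1 and 99.9 at 2 h and 114 and 94.7 at 4 h. Ndufa8 had 127 and 155 at 24 h, 126 and 121 at 48 h, 119.9 and 112 at 72 h, 105 and 111 at 120 h and 103 and 115 at 168 h. The 24 h pools were the highest of the course, and the log2 change was 0.59 ± 0.13, edgeR adjusted p = 0.00735. Uqcr11, the smallest subunit of complex III, fell. Scaled RPKM of Uqcr11 was 192 and 205 in the sham pools, 203 and 227 at 0.5 h, 173 and 160.3 at 2 h and 216 and 217 at 4 h. Uqcr11 had 127 and 139 at 24 h, 132 and 156 at 48 h, 174 and 146 at 72 h, 186 and 197 at 120 h and 203 and 181 at 168 h. Both pools at 24 h and both at 48 h lay below every pool of sham, 0.5 h and 4 h, and the change at 24 h was -0.57 ± 0.13, edgeR adjusted p = 0.00814. Atp5sl fell again. Scaled RPKM of Atp5sl was 7.85 and 10.2 in the sham pools, 10.6 and 11.6 at 0.5 h, 8.04 and 8.602 at 2 h and 4.67 and 5.88 at 4 h. Atp5sl had 5.27 and 5.78 at 24 h, 8.15 and 6.36 at 48 h, 6.54 and 8.34 at 72 h, 8.25 and 8.93 at 120 h and 9.36 and 9.11 at 168 h. Its pools at 4 h and 24 h lay below both sham pools, and the change at 24 h was -0.70 ± 0.18, edgeR adjusted p = 0.0152. Ndufa13 (GRIM-19), a complex I subunit first known for a role in cell death, fell. Scaled RPKM of Ndufa13 was 85.5 and 87.5 in the sham pools, 87.3 and 100.4 at 0.5 h, 96.3 and 91.0 at 2 h and 92.1 and 98.1 at 4 h. Ndufa13 had 64.0 and 68.0 at 24 h, 68.5 and 78.9 at 48 h, 88.6 and 85.5 at 72 h, 92.6 and 93.6 at 120 h and 91.0 and 88.4 at 168 h. The 4 pools of 24 h and 48 h were its lowest. The change at 24 h was -0.39 ± 0.11, edgeR adjusted p = 0.0225, and Tssk6 on the other strand overlaps 29.98% of its exon bases.

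Calls at 24 h rest on few pools. The count of 4 was 2 when sham replicate 1 was dropped, 1 when sham replicate 2 was, 0 when the 2 groups alone were fitted, and 7 without either 2 h pool. DESeq2 called 3 higher and 7 lower, RLE factors 2 and 3, and library totals alone 3 and 2. The call was lost for Ndufa8 without sham replicate 1 (edgeR adjusted p = 0.0657) or 24 h replicate 2 (0.0769), for Uqcr11 without sham replicate 2 (0.0632), for Atp5sl without sham replicate 2 (0.149) or 24 h replicate 1 (0.0643), and for Ndufa13 without either sham or either 24 h pool (0.0539 to 0.111).

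The step from 4 h to 24 h, which needs no sham library, held more change. At 24 h against 4 h 13 of the 72 fell and 1 rose, where 34.5% of all genes were called (17.5% higher and 17% lower), and the median of the subunit genes was -0.12 on the log2 scale against -0.01 for all genes. Of the 13, 3 belonged to complex I, 3 to complex III, 5 to complex IV and 2 to complex V. Uqcr11 fell by the most (-0.70 ± 0.13, edgeR adjusted p = 0.000835). Cox6c, a small membrane subunit of complex IV, fell as well (-0.68 ± 0.16, edgeR adjusted p = 0.00542). Uqcrq, a small complex III subunit known as ubiquinone-binding protein, fell (-0.63 ± 0.15, edgeR adjusted p = 0.00663), and so did Ndufa4 (-0.61 ± 0.13, edgeR adjusted p = 0.00299). In the 16 complete libraries Ndufa1, an accessory subunit of complex I encoded on chromosome X, also fell (-0.79 ± 0.18, edgeR adjusted p = 0.00747), and Atp5s did too (-0.95 ± 0.32, edgeR adjusted p = 0.0474), where 22.4% of the 12199 genes were called. Ndufa8 was the one that rose (0.43 ± 0.13, edgeR adjusted p = 0.0173). This direction depends on the scaling: with library totals alone the median of all genes moved by 0.48 on the log2 scale, 42 subunit genes were called higher and 0 lower, and the median of the subunit genes minus that of all genes was -0.10, against -0.11 with TMM factors. The count of 14 became 7 without 4 h replicate 2. Uqcrq lost its call without 4 h replicate 1 (edgeR adjusted p = 0.0530) or 24 h replicate 1 (0.0584), Ndufa8 without 4 h replicate 2 (0.185) or 24 h replicate 2 (0.190), Ndufa1 without 4 h replicate 1 (0.0684), and Atp5s with DESeq2 (adjusted p = 0.176), library totals alone (0.268), no filter (0.123), the 2 groups alone (0.155) and in 12 of 16 fits with 1 library left out, all but those without a sham, 0.5 h or 72 h library (0.0517 to 0.179). Summed hepatocyte markers moved with this step, at 90940 to 97260 CPM at 24 h against 160400 to 169800 at 4 h, and so did erythroid (163 to 192 CPM at 24 h against 295 to 296 at 4 h), cholangiocyte (33.9 to 49.4 against 97.4 to 158), endothelial (284 to 297 against 394 to 409.5) and stellate cell markers (237 to 263 against 303 to 314). These sums carry the TMM factors (0.7652 and 0.7935 at 4 h, 1.0952 and 1.0971 at 24 h), so their direction may depend on the scaling too. They are not given for library totals alone. Albumin, 1 of the 8 hepatocyte markers, weighs heavily in their sum. It took 7.97% and 9.18% of all reads, unscaled, at 4 h and 6.63% and 5.40% at 24 h. The part of these cell types in the step was not tested.

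At 48 h, a time when hepatocytes of the mouse are known to divide, more subunit genes were called against sham than at any other time, although with library totals alone 4 h had more. At 48 h against sham 16 of the 72 fell and 3 rose, a share of 26.4% where 36.8% of all genes were called (18% higher and 18.9% lower). The median change was -0.14 on the log2 scale for the subunit genes and -0.01 for all genes. Complex IV had 5 of 12 lower and none higher, complex III 2 of 9 lower, complex I 6 of 31 lower and 2 higher, complex V 3 of 16 lower and 1 higher, and complex II none of 4. Subunit genes are short, and among those under 1000 bases 16 of 47 were called (34.0%), beside 32.5% of all genes of that length. Of the longer ones 3 of 25 were called, a smaller share than the 36.8% of all tested genes. Only 381 of the 4906 tested genes were under 1000 bases, with 124 called, so most of the 1806 called genes were longer. Over settings the count of 19 was 17 with RLE factors, 22 with DESeq2 and 25 with the 2 groups alone. With library totals alone 9 were called higher and 5 lower and the median of all genes rose by 0.15. Of all 4906 genes, 1432 were then called higher and 605 lower. The count was 5 when sham replicate 1 was dropped, 4 when sham replicate 2 was, 6 without either 48 h pool and 3 in the 16 complete libraries. Summed hepatocyte markers stood at 129200 and 132200 CPM at 48 h against 131900 in sham replicate 1. Erythroid markers (9 of 10 listed) summed to 179 and 197 CPM at 48 h against 296 in sham replicate 1, and their part in the 48 h result was not tested. Both sums carry the TMM factors (1.1558 and 1.1039 at 48 h, 1.0285 in sham replicate 1). Their direction may depend on the scaling.

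**Figure D3:**
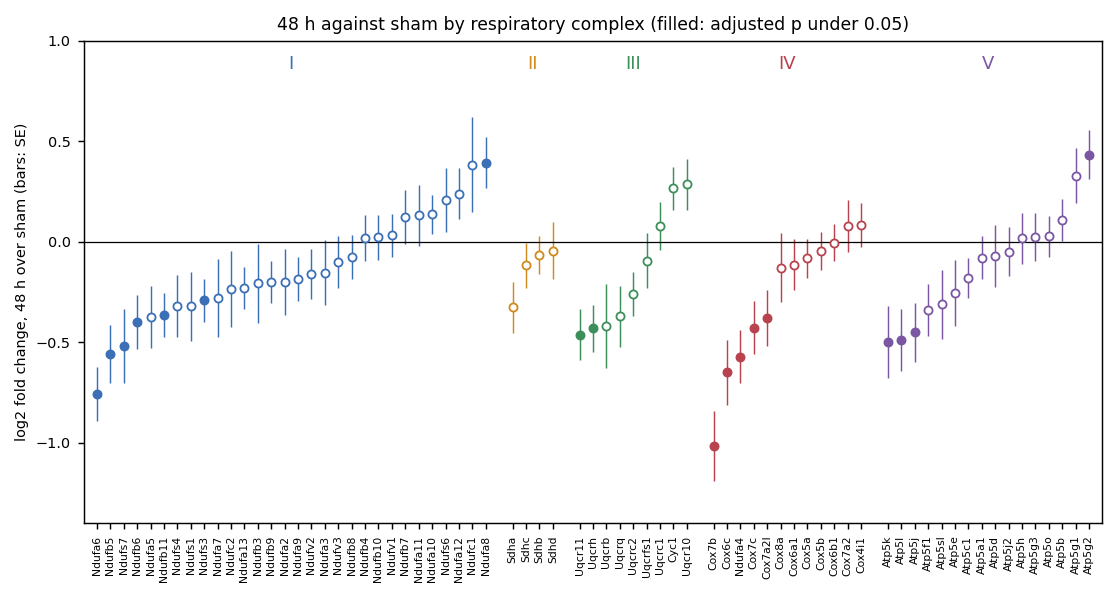
Log2 fold change at 48 h over sham (y axis) for 71 of the 72 subunit genes (x axis), ordered within complexes I to V; bars are SE, filled points have an edgeR adjusted p under 0.05, n = 2 pools per group. Cox7b lies lowest at -1.02, and Atp5g2 is the highest filled point at 0.43. The 16 lower and 3 higher of the 72 (26.4%, beside 36.8% of all tested genes) were 5 and 9 with library totals alone.

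Complex IV held the largest single fall at 48 h among the 72. Cox7b (gene ID 66142, chrX:106015700-106022450, GRCm38.p6) encodes a small membrane subunit of cytochrome c oxidase. Scaled RPKM of Cox7b was 103 and 99.3 in the sham pools, 76.3 and 87.2 at 0.5 h, 108 and 70.6 at 2 h and 112 and 110.0 at 4 h. Cox7b had 77.0 and 78.3 at 24 h, 50.6 and 49.2 at 48 h, 92.7 and 73.1 at 72 h, 89.5 and 94.3 at 120 h and 80.5 and 69.0 at 168 h. Both 48 h pools lay below every other pool and close to each other, and the fold change on the log2 scale was -1.02 ± 0.17, edgeR adjusted p = 0.000904. Cox6c encodes a further one. Scaled RPKM of Cox6c was 313 and 281 in the sham pools, 261 and 258 at 0.5 h, 356 and 232 at 2 h and 342 and 375 at 4 h. Cox6c had 221 and 226 at 24 h, 186 and 193 at 48 h, 292 and 239 at 72 h, 285 and 278 at 120 h and 219.6 and 227 at 168 h. The 48 h pools were again the lowest, with a change of -0.65 ± 0.16, edgeR adjusted p = 0.00769. Ndufa4 encodes the subunit that was moved from complex I to complex IV. Scaled RPKM of Ndufa4 was 369.8 and 399.9 in the sham pools, 402 and 394 at 0.5 h, 422 and 305 at 2 h and 465 and 452 at 4 h. Ndufa4 had 288 and 311 at 24 h, 268 and 250.0 at 48 h, 367 and 324 at 72 h, 358 and 359 at 120 h and 354 and 352 at 168 h. The 48 h pools lay below all others and the 4 h pools above all others, and the change at 48 h was -0.57 ± 0.13, edgeR adjusted p = 0.00531. Cox7c (-0.43 ± 0.13) and Cox7a2l, which encodes the factor that joins complexes III and IV into larger assemblies (-0.38 ± 0.14), fell too, and 27.9% of the 50-base windows of Cox7c occur in other genes. The 7 other tested genes of the complex, Cox4i1, Cox5a, Cox5b, Cox6a1, Cox6b1, Cox7a2 and Cox8a, were not called, and 5 of them lay below 0. Cox7b and Ndufa4 kept their calls whichever of the 18 libraries was left out (highest edgeR adjusted p of 0.0125 and 0.0499), and Cox6c lost it without sham replicate 1 (0.0625).

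**Figure D4:**
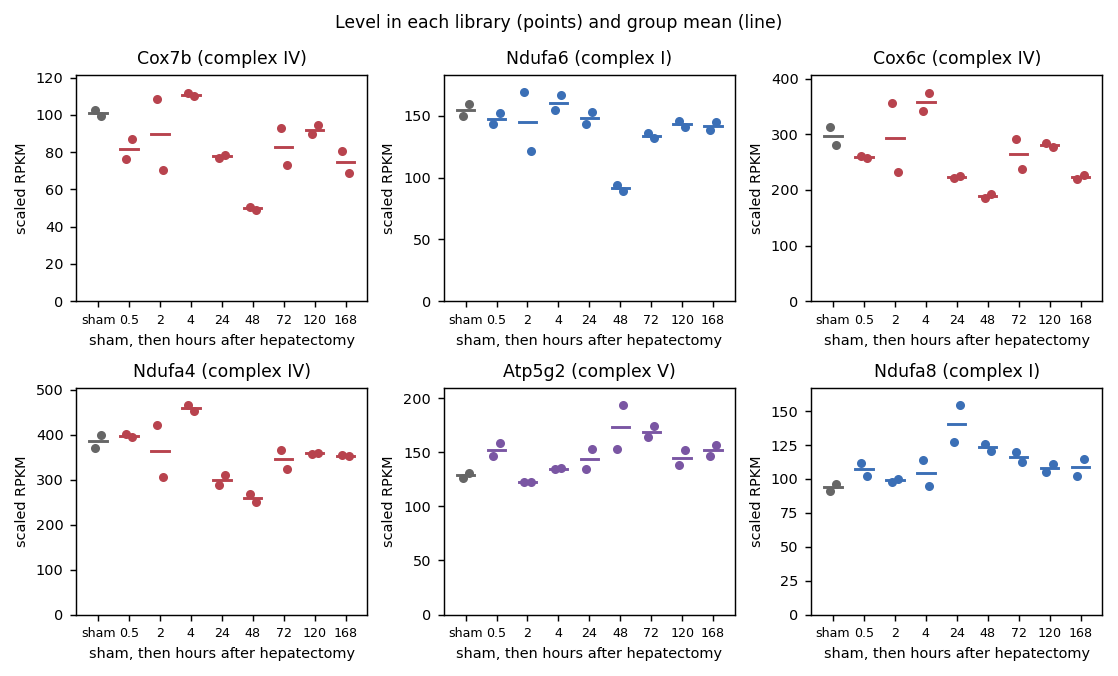
Scaled RPKM (y axis, from 0) of 6 subunit genes in each library (points) and the group mean (line), in sham and at each time in hours (x axis), n = 2 pools per group. Cox7b, Ndufa6, Cox6c and Ndufa4 are lowest at 48 h, Atp5g2 has its highest pool at 48 h, and Ndufa8 has both its highest pools at 24 h.

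In complex I the 6 genes that fell at 48 h were Ndufa6, Ndufb5, Ndufs7, Ndufb6, Ndufb11 and Ndufs3. Ndufa6 (gene ID 67130, chr15:82350139-82354291) encodes an accessory subunit that binds the mitochondrial acyl carrier protein to the arm of the complex. Scaled RPKM of Ndufa6 was 149.8 and 159.6 in the sham pools, 143 and 152 at 0.5 h, 169 and 121 at 2 h and 154 and 167 at 4 h. Ndufa6 had 144 and 153 at 24 h, 94.2 and 88.9 at 48 h, 136 and 132 at 72 h, 146 and 141 at 120 h and 139 and 145 at 168 h. Both 48 h pools lay well below every other pool, and the change was -0.76 ± 0.13, edgeR adjusted p = 0.00114; it stayed called whichever library was left out, with a highest adjusted p of 0.0155. Ndufb11 is an accessory subunit of the membrane arm encoded on chromosome X. Scaled RPKM of Ndufb11 was 103 and 108 in the sham pools, 115 and 138 at 0.5 h, 111 and 109 at 2 h and 109 and 117 at 4 h. Ndufb11 had 87.5 and 83.1 at 24 h, 79.9 and 84.1 at 48 h, 88.4 and 82.9 at 72 h, 102 and 103 at 120 h and 88.8 and 98.1 at 168 h. The pools at 24 h, 48 h and 72 h all lay below both sham pools, and the change at 48 h was -0.36 ± 0.11, edgeR adjusted p = 0.01998. Rbm10 on the other strand overlaps 12.9% of its exon bases. The changes of the other 4 ran from -0.56 for Ndufb5 to -0.29 for Ndufs3; Smim27 on the other strand overlaps 39.0% of the exon bases of Ndufb6. Ndufs7 and Ndufs3 are core subunits kept from bacteria to mammals.

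Ndufa8 rose at 48 h (0.39 ± 0.13, edgeR adjusted p = 0.0257). Ndufa8 lost its call without either sham pool (0.144 and 0.0668) or either 48 h pool (0.131 and 0.0792). Among the genes not listed everywhere, Ndufa1 fell at 48 h in the 16 complete libraries. Its reads were 187 and 179 in the sham pools, 194 in the listed pool at 0.5 h, 183 and 159 at 2 h and 183 and 156 at 4 h. Ndufa1 had 140 and 158 at 24 h, 131 and 109 at 48 h, 176 and 155 at 72 h, 222 and 194 at 120 h and 162 and 182 at 168 h. The 48 h libraries had the fewest, and against sham replicate 1 the change was -1.0 ± 0.22, edgeR adjusted p = 0.0101, where 14.9% of the 12199 genes were called; sham replicate 2, outside that fit, read 179. The call was lost without 48 h replicate 2 (0.0615). Ndufb2, with 97 to 165 reads per listed library, and Ndufs5, with 18 to 57 in the complete ones, were not called in any comparison, and a further gene, BC002163, shares 31.1% of the 50-base windows of Ndufs5.

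In complex III Uqcr11 (-0.46 ± 0.13, edgeR adjusted p = 0.0120) and Uqcrh, the hinge subunit that helps cytochrome c bind, fell at 48 h. Scaled RPKM of Uqcrh was 203 and 205 in the sham pools, 205 and 219.9 at 0.5 h, 232 and 184 at 2 h and 255 and 251 at 4 h. Uqcrh had 181 and 180.2 at 24 h, 145 and 157 at 48 h, 204 and 184 at 72 h, 189.5 and 209.7 at 120 h and 176 and 185 at 168 h. Its 4 h pools were the highest and its 48 h pools the lowest, and the change was -0.43 ± 0.12, edgeR adjusted p = 0.0126. The core proteins Uqcrc1 (0.08 ± 0.12) and Uqcrc2 (-0.26 ± 0.11), the iron-sulfur protein Uqcrfs1 (-0.09 ± 0.14) and cytochrome c1, Cyc1 (0.27 ± 0.11), did not pass the test. In complex II none of the 4 passed it at any time against sham, and the lowest value at 48 h was that of the flavoprotein Sdha (-0.33 ± 0.13, edgeR adjusted p = 0.0585).

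In complex V the 3 genes that fell at 48 h, Atp5k (-0.50 ± 0.18), Atp5l (-0.49 ± 0.15) and Atp5j (-0.45 ± 0.15), encode parts of the membrane sector and the stalk. Near copies share 84.9% of the 50-base windows of Atp5l, and Gabpa on the other strand overlaps 12.7% of the exon bases of Atp5j. None of the 5 genes of the catalytic F1 head, Atp5a1, Atp5b, Atp5c1, Atp5d and Atp5e, was called, and their changes ran from -0.26 to 0.11. Atp5g2 rose. Scaled RPKM of Atp5g2 was 127 and 131 in the sham pools, 146 and 159 at 0.5 h, 123 and 123 at 2 h and 134 and 136 at 4 h. Atp5g2 had 135 and 154 at 24 h, 153 and 194 at 48 h, 164 and 174 at 72 h, 138 and 152 at 120 h and 147 and 157 at 168 h. The pool of 48 h replicate 2 was the highest, and all pools from 24 h on lay above both sham pools. The change was 0.43 ± 0.12, edgeR adjusted p = 0.0145 at 48 h and 0.40 ± 0.12, edgeR adjusted p = 0.0487 at 72 h. At 48 h the call was lost without either sham pool (0.0877 and 0.0547) or without 48 h replicate 2 (0.179), where the value fell to 0.26. Other annotated genes share 14.8% of its windows, among them Mir688, which overlaps its exons on the same strand.

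The 3 genes Atp5g1, Atp5g2 and Atp5g3 encode the same mature c subunit of the rotor ring, each with its own import sequence, so they can be set side by side. At 48 h Atp5g1 changed by 0.33 ± 0.14, edgeR adjusted p = 0.0771, and Atp5g3 by 0.02 ± 0.12, edgeR adjusted p = 0.887. Of their summed RPKM, Atp5g2 took 31.2% and 35.6% at 48 h against 29.2% and 29.5% in sham, and Atp5g3 took 36.0% and 36.0% at 48 h against 42.6% and 41.1% in sham. Their promoters are shown because the mature product is shared. The difference between Atp5g1 and Atp5g2 was not tested, and Atp5g1 was also called with DESeq2 (adjusted p = 0.0398), with library totals alone (edgeR adjusted p = 0.0129), with the 2 groups alone (0.0221) and without either 24 h pool (0.0485 and 0.0372). Each line gives the 120 bases before the RefSeq start (GRCm38.p6), 5′ to 3′ on the gene's strand, with matches on either strand to 4 motifs in capitals. The motifs are NRF1 (GCGCANGCG), ETS (CCGGAAG), YY1 (AAGATGGCG) and estrogen-related receptor (TCAAGGTCA), and the stretches lie at chr11:96075632-96075751, minus strand, chr15:102671048-102671167, minus strand, and chr2:73911327-73911446, minus strand.
Atp5g1: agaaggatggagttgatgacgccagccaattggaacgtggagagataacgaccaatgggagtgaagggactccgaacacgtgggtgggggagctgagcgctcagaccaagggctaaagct
Atp5g2: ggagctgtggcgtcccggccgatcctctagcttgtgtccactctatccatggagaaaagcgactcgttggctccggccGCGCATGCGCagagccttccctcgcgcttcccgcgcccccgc
Atp5g3: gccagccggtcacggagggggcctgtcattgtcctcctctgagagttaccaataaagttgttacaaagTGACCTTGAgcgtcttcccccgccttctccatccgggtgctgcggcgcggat
The Atp5g2 stretch holds overlapping NRF1 matches on both strands, the Atp5g3 stretch a match to the estrogen-related receptor motif, and the Atp5g1 stretch none of the 4. The longer window of Atp5g3 also holds an NRF1 match outside the bases shown.

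After 48 h few differences from sham were called, and the summed level was 1.02 of sham at 72 h. At 72 h against sham Atp5g2 alone was called, where 12.6% of all genes were (6.16% higher and 6.42% lower), and that call was lost whichever library was left out except those of 24 h and 48 h, in 14 of 18 fits (edgeR adjusted p of 0.0526 to 0.231). DESeq2 called 7 higher and 1 lower at 72 h, library totals alone 10 higher, and fits with 1 library left out 0 to 3. At 72 h against 48 h Cox7b (0.73 ± 0.17, edgeR adjusted p = 0.0366) and Ndufa6 (0.55 ± 0.13, edgeR adjusted p = 0.0404) rose and none fell, where 3.67% of all genes were called (2.24% higher and 1.43% lower). The median was 0.14 on the log2 scale for the subunit genes and -0.01 for all genes. Cox7b lost that call without either sham, 48 h or 168 h pool or 72 h replicate 1 (edgeR adjusted p of 0.0515 to 0.276). Ndufa6 lost it without any pool of sham, 48 h, 72 h, 120 h or 168 h (0.0521 to 0.276). At 120 h none was called, where 0.775% of all genes were (1 at an unadjusted p under 0.05 and 0 by DESeq2), and at 168 h none, where 5.75% were (10 at an unadjusted p under 0.05 and 0 by DESeq2). Of all 4906 genes, 830 at 120 h and 1402 at 168 h had an unadjusted p under 0.05.

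The comparison of 168 h with 48 h set the late liver against the 48 h one without sham. It had 6 subunit genes higher and none lower, where 20.8% of all genes were called (11.5% higher and 9.32% lower), and a median of 0.18 on the log2 scale against -0.02 for all genes. Ndufa6 (0.63 ± 0.13, edgeR adjusted p = 0.00539), Ndufa7, an accessory subunit of complex I (0.59 ± 0.19, edgeR adjusted p = 0.0419), Cox7b (0.58 ± 0.17, edgeR adjusted p = 0.0287) and Ndufa4 (0.45 ± 0.13, edgeR adjusted p = 0.0278) were the largest, and Uqcr11 (0.41) and Ndufv3 (0.41) rose too. Ndufa1 rose in the 16 complete libraries (0.70 ± 0.18, edgeR adjusted p = 0.0232), where 13.8% of 12199 genes were called. With library totals alone 1 was called higher and 2 lower, and the median of all genes fell by 0.17. The count was 1 when 48 h replicate 1 was dropped, 0 when 48 h replicate 2 was, 2 for 168 h replicate 1 and 1 for 168 h replicate 2. Ndufa6 lost its call without 48 h replicate 2 alone (edgeR adjusted p = 0.0556), Cox7b, Ndufa4 and Ndufa1 without any pool of 48 h or 168 h (0.0591 to 0.191), and Ndufa7 without any pool of 2 h, 48 h, 72 h or 168 h (0.0502 to 0.213). Summed Kupffer cell markers stood at 1279 and 1583 CPM at 168 h against 649 and 748 at 48 h. Hepatocyte (145800 and 176200 against 129200 and 132200), erythroid (279 and 330 against 179 and 197), endothelial (323 and 366 against 276 and 299) and stellate sums (293 and 321 against 231 and 247) were higher too. Adipocyte sums were lower (6.72 and 8.44 against 8.85 and 13.2), and neutrophil and cholangiocyte sums overlapped. All these sums carry the TMM factors (1.0113 and 1.0234 at 168 h, 1.1558 and 1.1039 at 48 h). Their direction may depend on the scaling. The part of these cell types in these results was not tested.

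At 48 h against 24 h Ndufa6 (-0.70 ± 0.13, edgeR adjusted p = 0.00635), Cox7b (-0.64 ± 0.17, edgeR adjusted p = 0.0282) and Ndufa5, an accessory subunit of complex I (-0.58 ± 0.15, edgeR adjusted p = 0.0241), fell and none rose, where 14.5% of all genes were called (7.87% higher and 6.58% lower). Of these, Ndufa6 lost its call without 48 h replicate 2 (0.0581), Cox7b without either 24 h or either 48 h pool (0.0532 to 0.136), and Ndufa5 without 24 h replicate 1 or either 48 h pool (0.0969 to 0.196).

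The isoform genes of complex IV were mostly those of liver. Cox4i2, the form used in lung, had 22 reads in the 16 complete libraries, and the heart and muscle forms Cox6a2 and Cox8b had 4 and 2, all under the minimum of 30. Their partners Cox4i1, Cox6a1 and Cox8a were not called against sham at any time. Cox6b2 (gene ID 333182, chr7:4751792-4753094, GRCm38.p6) was an exception. It encodes the form of subunit VIb known from testis, and its common partner is Cox6b1. Its reads were 1 in the listed sham pool, 4 in the listed pool at 0.5 h, 3 and 3 at 2 h and 0 and 4 at 4 h. Cox6b2 had 3 and 3 at 24 h, 35 and 49 at 48 h, 21 and 33 at 72 h, 3 and 1 at 120 h and 5 and 2 at 168 h. The 4 libraries of 48 h and 72 h had 21 to 49 reads and the other 12 complete ones 0 to 5. Sham replicate 2 and 0.5 h replicate 1 could hold up to 52 and 157 reads, so that the fit against sham rests on 1 sham library.

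Ratios of CPM were taken here with library totals alone, without TMM factors. Against sham replicate 1, with 1 read, the ratio was 36.6 at 48 h (95% interval 6.39 to 1461, counting error only) and 24.2 at 72 h (4.16 to 973). The edgeR adjusted p in the 16 complete libraries was 0.00997 at 48 h and 0.0450 at 72 h, where 14.9% and 3.82% of the 12199 genes were called. The comparisons between times do not use sham: 48 h against 24 h gave 3.66 ± 0.65, edgeR adjusted p = 0.00579, where 6.57% of genes were called, and 168 h against 48 h gave -3.36 ± 0.64, edgeR adjusted p = 0.00461. The 48 h call was kept whichever of 15 libraries was left out, and the 72 h call was lost in 8 of 15: without either 2 h, 48 h or 168 h pool, 72 h replicate 2 or 120 h replicate 1 (0.0503 to 0.198). The call against 24 h was lost without 24 h replicate 1 (0.0556) or 48 h replicate 2 (0.0507), and that of 168 h against 48 h without 168 h replicate 2 (0.0695). At 72 h DESeq2 gave an adjusted p of 0.112 and the fit of the 2 groups alone 0.0597. No annotated exon overlaps Cox6b2 and no other gene shares a 50-base window with it. In absolute terms it stayed small: of the summed RPKM of Cox6b1 and Cox6b2 it made up 1.59% and 2.17% at 48 h, 0.932% and 1.47% at 72 h and 0.0581% in sham replicate 1, while Cox6b1 changed by -0.01 ± 0.09, edgeR adjusted p = 0.962 at 48 h.

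The stretches before the starts of both genes are shown because one of this pair rose and the other did not pass the test; they lie at chr7:4753095-4753214, minus strand, and chr7:30626115-30626234, minus strand, and capitals again mark matches to the 4 motifs.
Cox6b2: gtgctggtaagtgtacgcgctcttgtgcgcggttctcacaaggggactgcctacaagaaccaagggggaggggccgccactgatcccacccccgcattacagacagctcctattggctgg
Cox6b1: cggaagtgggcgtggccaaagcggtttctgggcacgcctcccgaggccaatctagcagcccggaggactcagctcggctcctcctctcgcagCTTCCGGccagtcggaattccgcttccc
The Cox6b2 stretch holds none of the motifs searched, and the Cox6b1 stretch an ETS match on the strand opposite to the gene.

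**Figure D5:**
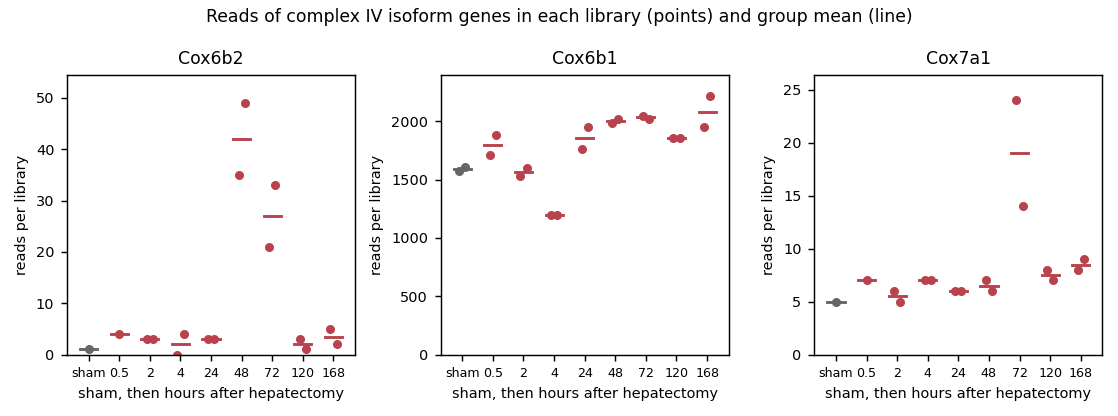
Reads per library (y axis, from 0) of Cox6b2, Cox6b1 and Cox7a1 in sham and at each time in hours (x axis); points are single libraries, lines are group means, and libraries whose table does not list the gene have no point. Cox6b2 reads are 35 and 49 at 48 h and 21 and 33 at 72 h, and 5 or fewer in all other complete libraries.

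Cox7a1 is the heart and muscle form of subunit VIIa. It had 24 and 14 reads at 72 h against 5 in sham replicate 1, and 5 to 9 in the other complete libraries. It did not pass the test (1.65 ± 0.63, edgeR adjusted p = 0.173), and of the 12 muscle markers looked for, the 7 listed had under 3 reads in every library. Cox7a2 held 57.3% to 71.1% of the summed RPKM of Cox7a1, Cox7a2 and Cox7a2l over the complete libraries. Outside the symbol rule, Ndufa4l2, a relative of Ndufa4 induced by low oxygen, had at most 19 reads in a complete library, and Ndufab1, the acyl carrier protein, had 193 to 428 reads per library.

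The promoter windows of the subunit genes held motifs of factors known for mitochondrial genes more often than the windows of all genes. A match describes letters and is not a binding site. Of the 79 genes 67 had a RefSeq window (GRCm38.p6; 250 bases before to 50 after a start), 73 windows in all beside 32851 of all genes. The NRF1 motif GCGCANGCG occurred in 28.8% of the subunit windows and 6.25% of all windows, on either strand. The ETS motif CCGGAAG, bound by factors such as GABPA, occurred in 21.9% and 8.86%, the YY1 motif AAGATGGCG in 12.3% and 1.40%, and the estrogen-related receptor motif TCAAGGTCA in 2.74% and 0.423%. The median GC content was 57.7% for the subunit windows and 52.7% for all windows. At 48 h against sham, of the 19 tested genes with an NRF1 match 2 rose and 4 fell, and of the 41 without, 0 rose and 11 fell. Of the 15 with an ETS match 0 rose and 7 fell, and of the 45 without, 2 rose and 8 fell. Of all tested genes 36.8% were called at 48 h (18% higher and 18.9% lower). The calls depend on the scaling, with 9 subunit genes higher and 5 lower with library totals alone. Whether a match went with a change was not tested. The stretches of the genes with the largest falls are shown, at chrX:106015580-106015699, plus strand, and chr15:82354292-82354411, minus strand.
Cox7b: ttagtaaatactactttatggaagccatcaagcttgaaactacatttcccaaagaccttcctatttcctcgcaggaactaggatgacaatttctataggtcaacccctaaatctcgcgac
Ndufa6: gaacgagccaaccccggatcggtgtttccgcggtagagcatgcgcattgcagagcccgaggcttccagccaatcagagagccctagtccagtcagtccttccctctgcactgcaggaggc
Neither stretch holds a match to the motifs searched, while the longer window of Ndufa6 holds an NRF1 match outside the bases shown.

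The other genes of the pathway were read from lists, whose counts at 48 h stand beside 36.8% of all genes called (18% higher and 18.9% lower) in 18 libraries and 14.9% in the 16 complete ones. At 48 h against sham the citric acid cycle, which feeds complexes I and II, had 5 of 18 genes higher and 2 lower with a median of 0.23, a share of 38.9%, and in the 16 complete libraries 3 higher and 1 lower. Mdh2 (0.85 ± 0.11, edgeR adjusted p = 0.000152), Idh2 (1.12 ± 0.16, edgeR adjusted p = 0.00034), Fh1 (0.60 ± 0.12, edgeR adjusted p = 0.00299) and Dlst (0.55 ± 0.12, edgeR adjusted p = 0.00348) rose. At 24 h against 4 h the same list had 7 of 18 higher and 2 lower, where 34.5% of all genes were called (17.5% higher and 17% lower). With library totals alone 2723 of all 4906 genes were higher in that step, and the list is not given for that scaling. At 48 h against sham, ATP export and uncoupling had 4 of 7 higher and none lower with a median of 0.49, and 2 of 8 higher in the 16 complete libraries. Atpif1, the inhibitor of ATP synthase running in reverse, rose the most of these (1.25 ± 0.18, edgeR adjusted p = 0.000315), and the outer membrane channels Vdac1 (0.49 ± 0.10) and Vdac2 (0.50 ± 0.11) and the carrier Ucp2 (0.82 ± 0.23) rose too. Electron carriers had 1 of 9 higher and 3 lower (1 of 20 higher and 2 lower in the 16 complete libraries), among them Adck3, needed for ubiquinone synthesis (-1.27 ± 0.17, edgeR adjusted p = 0.000185), and Etfdh, which passes electrons from fatty acid oxidation to ubiquinone (-0.77 ± 0.17, edgeR adjusted p = 0.00375). Complex I assembly had 0 of 6 higher and 1 lower (Ndufaf4, -0.99 ± 0.28, edgeR adjusted p = 0.0150), and assembly of complexes II to V had 3 of 10 higher and none lower (Cox19, Atpaf2 and Coa3) with a median of 0.19. In the 16 complete libraries complex I assembly had 0 of 15 higher and 2 lower. There, assembly of complexes II to V had 1 of 31 higher and none lower with a median of -0.13, so that its direction turns with the genes tested.

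Regulators of mitochondrial biogenesis had none of 8 higher and 3 lower at 48 h against sham in 18 libraries, a share of 37.5%, and 2 of 20 higher and 2 lower in the 16 complete ones. Ppargc1a, the coactivator known for driving mitochondrial genes, moved early. Scaled RPKM of Ppargc1a was 1.58 and 1.81 in the sham pools, 1.34 in the listed pool at 0.5 h, 6.58 and 4.31 at 2 h and 6.83 and 5.07 at 4 h. Ppargc1a had 1.51 and 2.21 at 24 h, 1.02 and 1.26 at 48 h, 1.29 and 2.05 at 72 h, 0.935 and 1.47 at 120 h and 0.928 and 0.952 at 168 h. All 4 pools at 2 h and 4 h lay above every other listed pool, and in the 16 complete libraries it rose at 2 h (1.84 ± 0.38, edgeR adjusted p = 0.0203), where 2.65% of genes were called, and at 4 h (1.88 ± 0.38, edgeR adjusted p = 0.00483), where 15.5% were. In the 16 complete libraries Nrf1 was higher at 48 h than in sham replicate 1, with a log2 change of 1.09. Sham replicate 2, outside that fit, stood above sham replicate 1 (2.24 against 1.67 scaled RPKM). Scaled RPKM of Nrf1 was 1.67 and 2.24 in the sham pools, 1.92 in the listed pool at 0.5 h, 2.02 and 2.79 at 2 h and 3.43 and 2.79 at 4 h. Nrf1 had 1.52 and 1.80 at 24 h, 3.57 and 3.68 at 48 h, 2.52 and 3.33 at 72 h, 1.95 and 1.89 at 120 h and 1.77 and 1.61 at 168 h. Gabpa, listed in all 18 libraries, fell at 48 h (-0.77 ± 0.24, edgeR adjusted p = 0.0247). Its scaled RPKM was 9.15 and 7.91 in the sham pools, 6.97 and 4.84 at 24 h and 4.305 and 5.69 at 48 h. Gabpa had 5.85 and 6.79 at 72 h, 5.59 and 6.24 at 120 h and 5.56 and 4.75 at 168 h. Every pool from 24 h on lay below both sham pools. Exons of Gabpa overlap those of Atp5j on the other strand, and Atp5j also fell at 48 h (-0.45). Whether the 2 genes share reads was not tested. In the 16 complete libraries Esrra was lower at 4 h than in sham replicate 1, with a log2 change of -0.99. Ppargc1b (-1.71 at 4 h) and Tfam, which packs and transcribes mitochondrial DNA (-0.16 at 48 h), were not called against sham at any time in that fit.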

How the data were processed

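Uniquely mapped reads per gene were deposited by the authors as counts, 1 table per library, beside RPKM values that equal counts divided by gene length and library total (recomputed from the deposited counts within 0.0001). Per the labels' protocols, RNA from frozen liver (TRIZOL, then DNase I) was selected with oligo(dT), fragmented and primed with random hexamers. Per the submitters' processing notes the genome was mm10. The sources used here give no aligner, counter or strand setting; genes that overlap on opposite strands may share reads.

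The subunit genes, gene lists and rules were chosen with earlier results of these data known. The test was the quasi-likelihood F test of edgeR 4.0.16 (R 4.3.3), with all 9 groups in 1 fit and TMM factors from 0.765 to 1.16 and p-values adjusted by Benjamini-Hochberg within a comparison over all genes tested, at a threshold of 0.05. The 18 libraries gave 4906 genes listed in both short tables and 9 residual degrees of freedom; the 16 complete ones gave 12199 genes (a minimum equal to 10 reads at median depth in 2 or more libraries, with 15 reads or more summed) and 7. Each SE is the size of the log2 fold change over the square root of F. The procedure was tested on simulated data. Named genes are up to 4 called rises and 4 called falls per comparison, the 10 smallest p over all groups, the most abundant gene of each complex, isoform families, untested members and listed regulators; others named were chosen after their values were seen, as were the classes of F1 and stalk genes. Results of 1 subunit gene are not reported here, and it is left out of the plots of log2 fold changes. Exon overlaps and shared 50-base windows were counted in GENCODE M21 (GRCm38). Alternatives were RLE factors, library totals alone, DESeq2 1.42.0, no filter, the 2 groups alone, the 16 complete libraries, a replicate block and leaving out each library. Intervals cover counting error only. Figures were drawn with matplotlib 3.10.9.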

Additional observations from a re-analysis of the deposited data

Results flagged for a closer look

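Changes between times of the same course, tested directly with edgeR, marked the following results. Where 34.5% of all tested genes were called at 24 h against 4 h, 14 of the 72 subunit genes differed. For 13 of these the change from sham had opposite signs at the 2 times (24 h first, then 4 h, log2 scale). Uqcr11 moved by -0.70 between them (-0.57 and 0.13), Cox6c by -0.68 (-0.41 and 0.27), Uqcrq by -0.63 (-0.46 and 0.17) and Ndufa4 by -0.61 (-0.36 and 0.25). Ndufa13 moved by -0.53 (-0.39 and 0.14), Cox7b by -0.51 (-0.38 and 0.13), Uqcrh by -0.49 (-0.18 and 0.31) and Atp5j by -0.44 (-0.24 and 0.20). Atp5j2 moved by -0.43 (-0.11 and 0.31), Cox7a2 by -0.42 (-0.02 and 0.40), Ndufb11 by -0.41 (-0.31 and 0.10), Cox7c by -0.37 (-0.35 and 0.01) and Ndufb9 by -0.33 (-0.20 and 0.13). These signs rest on the scaling: with library totals alone 2 of the 14 had opposite signs, 11 were lower than sham at both times and 1 was higher at both. With library totals alone none of the 72 was called lower in this comparison and 42 were called higher. In the 16 complete libraries Ndufa1 moved by -0.79 (-0.60 and 0.20) and Atp5s by -0.95 (-0.34 and 0.62).

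At 48 h against 24 h 3 subunit genes differed, where 14.5% of all tested genes did. Among the 3 was Ndufa5 by -0.58 (48 h -0.37 and 24 h 0.21, both over sham), and Cox6b2 moved by 3.66 in the 16 complete libraries. At 72 h against 48 h 2 differed, where 3.67% of all tested genes did. At 168 h against 48 h 6 differed, where 20.8% of all tested genes did. Among the 6 were Ndufa7 by 0.59 (0.31 at 168 h and -0.28 at 48 h) and Ndufv3 by 0.41 (0.31 at 168 h and -0.10 at 48 h). In the 16 complete libraries Cox6b2 moved by -3.36 and Ndufa1 by 0.70. The comparisons with sham share its libraries, so these pairs of values are not independent.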

How the results depend on the processing

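None of the 37 named changes turned its sign under the alternatives run. With library totals alone all 34 subunit genes called at 4 h were lower and all 42 called at 24 h against 4 h were higher. With DESeq2 the number of subunit genes called over sham was 2 (0.5 h), 6 (4 h), 10 (24 h) and 8 (72 h), then 7 at 48 h against 24 h, 7 at 72 h against 48 h, 11 at 168 h against 48 h and 45 for any difference. With library totals alone it was over sham 1 (2 h), 34 (4 h) and 10 (72 h), then 42 at 24 h against 4 h, 1 at 72 h against 48 h, 3 at 168 h against 48 h and 47 for any difference. RLE factors gave 2 at 72 h. With the 2 groups alone it was over sham 0 (24 h), 4 (72 h) and 2 (168 h), then 3 at 24 h against 4 h, and 0 at 48 h against 24 h and at 72 h against 48 h. With no filter and unlisted genes as 0 it was over sham 1 (4 h), 2 (24 h), 6 (48 h) and 0 (72 h), then 6 at 24 h against 4 h, 1 at 48 h against 24 h, 0 at 72 h against 48 h, 1 at 168 h against 48 h and 11 for any difference. In the 16 complete libraries, where sham has 1 library assumed to vary like the other groups, it was over sham 1 (4 h), 0 (24 h), 3 (48 h) and 0 (72 h), then 9 at 24 h against 4 h, 0 at 72 h against 48 h and 15 for any difference. These settings differ in scaling, tests, genes or samples, and the cause of each shift was not tested. Leaving out 1 library gave over sham 0 (0.5, 2 and 120 h), 1 to 6 (4 h), 1 to 7 (24 h), 4 to 23 (48 h), 0 to 3 (72 h) and 0 to 1 (168 h). It gave 7 to 15 at 24 h against 4 h, 0 to 3 at 48 h against 24 h, 0 to 4 at 72 h against 48 h, 0 to 8 at 168 h against 48 h, 16 to 30 for any difference and 2 throughout for the genes outside the short tables. For the 37 named changes, 67 of 251 values under other settings and 127 of 647 with 1 library left out lost their call.

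Samples share only a replicate number: the deviations of same-numbered pools correlated at -0.55 to 0.53 over 36 pairs of groups (median 0.04, 14 over 0.1). With the replicate block, 17 subunit genes were called at 48 h against sham, 15 at 24 h against 4 h and 24 for any difference, and in the 16 complete libraries Cox6b2 at 72 h against sham (4.17, edgeR adjusted p = 0.0753) and Atp5s at 24 h against 4 h (-0.95, 0.0607) were not called. With 2 pools per group, differences of the size of the spread between pools were not detectable.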
